A study of Homo sapiens with 4 samples.

Results

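The immunoproteasome, its activator PA28 and their constitutive counterparts were followed in Caco-2 cells by 10 genes. These were the inducible catalytic subunits PSMB8, PSMB9 and PSMB10, the constitutive subunits that they replace (PSMB5, PSMB6 and PSMB7), the PA28 subunits PSME1 and PSME2, and the aminopeptidases ERAP1 and ERAP2. They were chosen by their known roles, with earlier results of these data known, and found through the Ensembl identifiers that map to these symbols. All 10 had a row among the 37515 genes counted, and all 10 passed the filter on low counts that left 14820 genes for the test. The data were RNA-seq libraries of total RNA from Caco-2, a human colorectal adenocarcinoma line that forms an enterocyte-like layer on a filter. Cells were kept in transwells for 15 days in both groups. The unstimulated group (0 h, media) and the IFNγ group (3 h, 60 ng/ml IFNγ given to the basal compartment) each had 2 libraries, and the titles mark all 4 libraries as WT. IFNγ and the 3 h that had passed cannot be told apart, since the unstimulated cells were taken at 0 h. The line is a tumor line in culture, and the labels do not say whether the 2 libraries of a group came from separate cultures. The p-values therefore measure the spread between these libraries, which may be technical.

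The proteasome is the protease complex that degrades ubiquitin-tagged proteins, and many peptides shown on MHC class I are its products. Its barrel-shaped 20S core holds catalytic sites on the subunits β1, β2 and β5, which PSMB6, PSMB7 and PSMB5 encode. In cells that meet IFNγ, newly assembled cores can take up β1i (PSMB9), β2i (PSMB10) and β5i (PSMB8) in their place, which shifts cleavage towards peptides with ends that MHC class I binds well. PA28 is a ring of PSME1 and PSME2 subunits that docks on the end of the core. Peptides that reach the endoplasmic reticulum through the transporter TAP are trimmed there by ERAP1 and ERAP2.

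Library totals ranged from 7171455 to 10365346 counts, so that 1 CPM (the count scaled to library size, with TMM factors) stood for 7.14 to 10.3 counts. All 12 markers of enterocyte-like epithelium reached at least 10 counts. Their summed level was 9369 to 10106 CPM in the unstimulated libraries and 11031 to 11535 CPM in the IFNγ libraries. Single markers differed in direction. SI had 4306 and 3134 counts without IFNγ and 2651 and 984 with it, while CDX2 had 1825 and 1263 against 4207 and 2972. The 4 leukocyte markers summed to 6.04 and 8.27 CPM without IFNγ and to 9.43 and 11.3 CPM with it, mostly from CD14 and LYZ, and PTPRC had at most 2 counts in a library. The 4 fibroblast markers summed to 185 and 93.7 CPM without IFNγ and 173 and 128 CPM with it, nearly all from COL1A1, while COL1A2 and DCN had at most 1 count. The 2 endothelial markers with a row summed to at most 2.32 CPM. IRF1, a transcription factor that IFNγ is known to induce, rose from 19.7 ± 0.633 to 1143 ± 82.4 CPM (SD, n = 2 libraries each; adjusted p = 7.43e-06, edgeR), the direction that the labels give. In bulk RNA, fewer cells that express a gene and less RNA per cell cannot be told apart.

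Promoter windows of the members are shown first, because 6 of the 8 members that had a window carried the same short element close to the start of transcription. The interferon-stimulated response element (ISRE) is bound by IRF family factors, and its core was searched on both strands as GAAA, any 2 bases and GAAA. Windows ran from 250 bases before to 50 bases after a RefSeq transcript start on GRCh38.p14. The ISRE core was found in 3.57% of the 35116 windows, and in at least 1 window of 4.38% of the 27305 genes. The stretches below run from 80 bases before to 20 bases after the start of the member's window with a match, 5′ to 3′ on the gene's strand, with the match in capitals.
PSMB8, chr6:32844028-32844127, minus strand: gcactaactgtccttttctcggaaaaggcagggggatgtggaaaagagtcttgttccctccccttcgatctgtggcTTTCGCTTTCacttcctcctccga
PSMB10, chr16:67936831-67936930, minus strand: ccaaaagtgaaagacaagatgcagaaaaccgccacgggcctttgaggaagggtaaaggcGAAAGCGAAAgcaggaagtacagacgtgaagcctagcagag
PSME1, chr14:24136114-24136213, plus strand: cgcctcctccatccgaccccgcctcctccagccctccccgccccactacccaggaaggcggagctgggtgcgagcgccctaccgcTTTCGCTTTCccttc
PSME2, chr14:24146591-24146690, minus strand: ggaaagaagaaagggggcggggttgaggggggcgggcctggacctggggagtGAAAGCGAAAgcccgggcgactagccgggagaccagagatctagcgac
ERAP1, chr5:96807926-96808025, minus strand: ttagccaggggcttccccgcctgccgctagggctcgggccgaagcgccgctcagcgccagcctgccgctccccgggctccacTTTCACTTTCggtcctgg
ERAP2, chr5:96876420-96876519, plus strand: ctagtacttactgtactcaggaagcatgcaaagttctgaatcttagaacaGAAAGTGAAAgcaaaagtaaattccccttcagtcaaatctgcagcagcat

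The match began 4 bases before the start in PSMB8, 21 before in PSMB10, 28 before in PSME2 and 30 before in ERAP2. With the start counted as base 1, the match began at base 3 in ERAP1 and at base 6 in PSME1. PSMB8, ERAP1 and ERAP2 each had 2 windows, of which 1 held the match. No match to these letters was in the windows of PSMB9 and PSMB5, and PSMB6 and PSMB7 had no window. PSMB9 lies head to head with TAP1, which encodes a subunit of the peptide transporter, with 488 bases between their starts. The TAP1 window at its start nearest to PSMB9 held 2 overlapping matches, and another TAP1 window held none. The stretch of these matches lies 354 to 369 bases before the start of PSMB9. It is shown because it is the match nearest to PSMB9 in the windows searched, from 140 bases before the TAP1 start.
TAP1, chr6:32853745-32853844, minus strand: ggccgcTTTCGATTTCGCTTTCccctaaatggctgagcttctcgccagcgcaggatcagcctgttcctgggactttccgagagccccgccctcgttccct

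The gamma-activated site (GAS) was searched as TTCNNNGAA on both strands. Among the members it was in a window of PSMB8, 65 bases before the start and apart from the ISRE match. A window of PSMB5 held 2 matches, the farther 158 bases before the start. The TAP1 window without an ISRE match had a GAS match 189 bases before its start. GAS was found in 9.38% of genes. A match is a run of letters only, and binding was not measured.

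Of the 10 members, the 3 inducible catalytic subunits rose after 3 h of IFNγ, by 11.3-fold for PSMB9, 2.16-fold for PSMB8 and 1.55-fold for PSMB10. None passed the test lower. The other 7, with values from 0.91-fold for ERAP2 to 1.33-fold for PSME2, did not pass the test. A call needed an adjusted p under 0.05 with a log2 fold change beyond 1 in either direction, limits like those that the methods state for another cell type of the study and not for Caco-2. It was met by PSMB8 and PSMB9 (2 of 10), and 2.88% of all genes tested were called higher and 4.40% lower. The adjusted p alone (edgeR's quasi-likelihood test, Benjamini-Hochberg over 14820 genes) was under 0.05 for 3 of 10, all higher, against 9.02% of all genes higher and 11.0% lower. Both IFNγ libraries lay above both unstimulated libraries for 7 of 10 members (31.6% of all genes) and below them for 1, ERAP2 (30.8% of all genes). The median log2 fold change was 0.32 over the members and -0.01 over all genes tested.

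**Figure D1:**
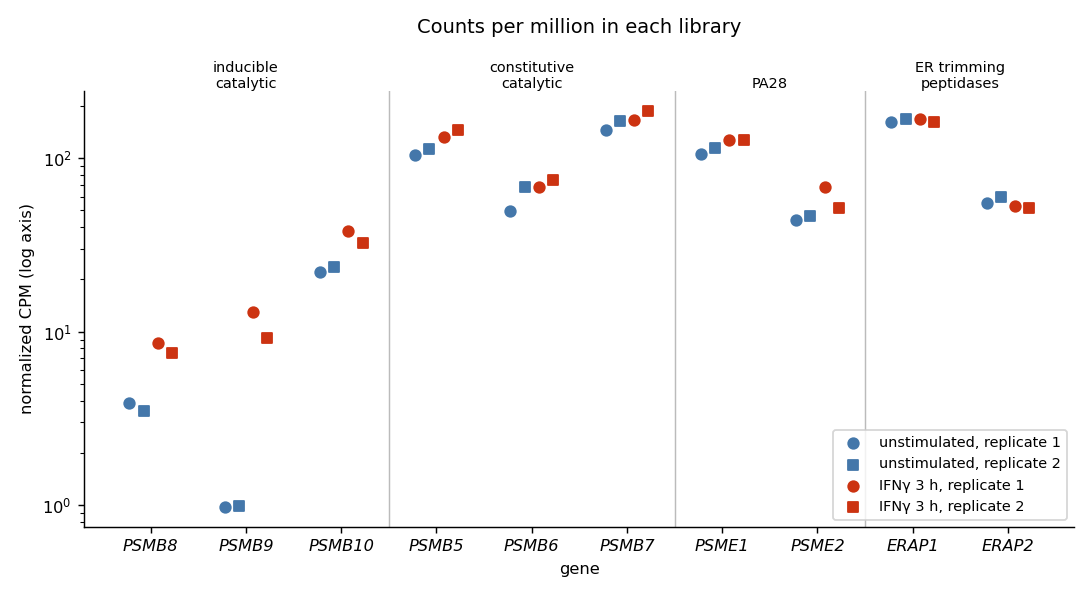
Level of the 10 genes in each library, in CPM on a log axis, with points for the 2 unstimulated and 2 IFNγ libraries. PSMB9 moved from 0.974 and 0.981 CPM to 13 and 9.14 CPM, while ERAP1 stayed between 161 and 169 CPM.

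PSMB9 (ENSG00000240065, chr6:32811913-32827628, plus strand, GRCh37) encodes β1i. Its counts were 10 and 7 before stimulation, and 134 and 67 at 3 h of IFNγ, which is 0.974 and 0.981 CPM against 13 and 9.14 CPM. The groups were far apart, and the IFNγ libraries differed from each other more than the unstimulated ones. The mean rose from 0.977 ± 0.00495 to 11.1 ± 2.75 CPM, a log2 fold change of 3.50 (SE 0.341, adjusted p = 0.0015, edgeR). The log2 fold change was 3.46 for the libraries numbered 1 and 2.95 for those numbered 2. These pair values had a prior count of 2 added, which draws them towards 0 at such low counts. Leaving out each library in turn gave 3.19 to 3.69, past the test each time. Exons of PSMB9 share 5.21% of their length with the same-strand long non-coding RNA PSMB8-AS1, which had 1 and 0 counts without IFNγ and 33 and 11 counts with it. Whether the overlap raised or lowered the PSMB9 counts was not tested.

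PSMB8 (ENSG00000204264, chr6:32808494-32812456, minus strand, GRCh37) encodes β5i and lies beside PSMB9 in the MHC region. Its counts were 40 and 25 in the unstimulated libraries and 88 and 55 in the IFNγ libraries, or 3.89 and 3.5 CPM against 8.56 and 7.5 CPM. Each IFNγ library was above each unstimulated one. The mean rose from 3.7 ± 0.277 to 8.03 ± 0.746 CPM, with a log2 fold change of 1.11 (SE 0.256, adjusted p = 0.0229, edgeR). The log2 fold changes within numbered pairs, 1.09 and 1.05, were close to each other. The call rested on few counts, and it was lost when any library other than IFNγ library 2 was left out. Without unstimulated library 1 the adjusted p was 0.0651, without unstimulated library 2 it was 0.0838, and without IFNγ library 1 it was 0.078, at log2 fold changes of 1.20, 1.05 and 1.00. DESeq2 gave an adjusted p of 0.075. PSMB8 shares 17.3% of its exon length with PSMB8-AS1 on the opposite strand and 3.99% with PSMB9. How the counting treated strand is not given in the sources used here. Whether the overlaps raised or lowered the PSMB8 counts was not tested.

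PSMB10 (ENSG00000205220, chr16:67968409-67970767, minus strand, GRCh37) encodes β2i. It had 226 and 169 counts without IFNγ and 392 and 239 counts with it, or 22 and 23.7 CPM against 38.1 and 32.6 CPM. The groups did not overlap, and the step from unstimulated was larger in IFNγ library 1 than in library 2. The mean rose from 22.8 ± 1.18 to 35.4 ± 3.9 CPM, with a log2 fold change of 0.64 (SE 0.153, adjusted p = 0.027, edgeR). PSMB10 therefore passed the test without reaching the fold that a call needs. The adjusted p was 0.119 without unstimulated library 1, 0.0647 without unstimulated library 2 and 0.0903 without IFNγ library 1. Of its exon length, 39.4% is shared with ENSG00000261884 on the same strand, which had 16 and 7 counts without IFNγ and 59 and 19 with it. Whether the overlap raised or lowered the PSMB10 counts was not tested.

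GC content moved with the fold changes over all genes (Spearman's rho 0.431 across 14518 genes, which are not independent replicates), genes of high GC being higher with IFNγ. PSMB10 has a GC content of 61.7%, PSMB8 of 53.8% and PSMB9 of 46.9%. With a smooth trend on GC and length taken out of each library, the log2 fold change was 3.43 for PSMB9 (adjusted p = 0.00105), 0.88 for PSMB8 (adjusted p = 0.0525) and 0.35 for PSMB10 (adjusted p = 0.159), all from edgeR. PSMB9 thus kept its call in that fit, while PSMB8 and PSMB10 did not pass the test. With the replicate number also taken as a block, PSMB8 had 0.89 (adjusted p = 0.00228, edgeR) and PSMB10 had 0.35 (adjusted p = 0.0317, edgeR). Both passed there, as did 17.0% of all genes higher and 20.9% lower. That fit took a gene's spread from a value shared by genes of similar level, not from the gene's own libraries. With the trend removed and no block, 2.49% of all genes were called higher and 2.51% lower. Of those calls 49.8% were higher, against 41.5% with the block as well and 39.6% without the trend removed.

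**Figure D2:**
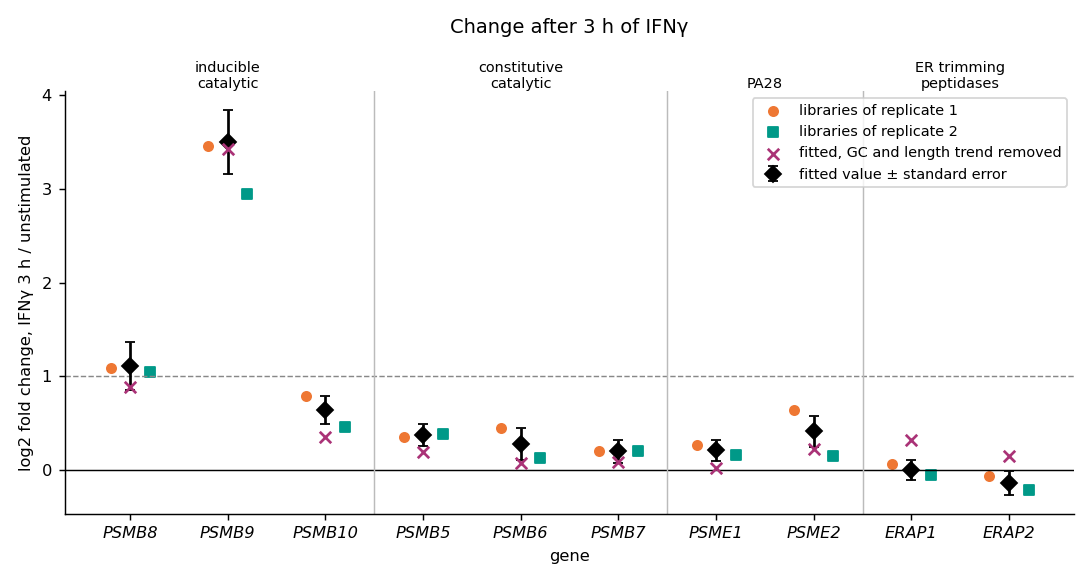
Log2 fold change of the 10 genes, IFNγ over unstimulated, as edgeR's estimate with its SE as a bar (diamonds), the value of each numbered pair of libraries (circles and squares) and the estimate with the GC and length trend removed (crosses). The dashed line is the fold of a call. The estimates for PSMB9, PSMB8 and PSMB10 are 3.50, 1.11 and 0.64, and the other 7 lie between -0.14 and 0.41.

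The 3 constitutive catalytic subunits had values above 1-fold and did not pass the test. PSMB5 (β5, ENSG00000100804, chr14:23485752-23504439, minus strand, GRCh37) had 104 and 113 CPM in the unstimulated libraries and 132 and 146 CPM in the IFNγ libraries. The groups did not overlap, and the means were 108 ± 6.15 and 139 ± 10.1 CPM, a log2 fold change of 0.37 (SE 0.119, adjusted p = 0.0696, edgeR). With upper quartile scaling, PSMB5 passed the test (adjusted p = 0.0455). PSMB7 (β2, ENSG00000136930, chr9:127115744-127177723, minus strand, GRCh37) had 145 and 163 CPM against 167 and 188 CPM. These groups were apart by less than the gap between the libraries of a group, with a log2 fold change of 0.20 (SE 0.123, adjusted p = 0.286, edgeR). PSMB6 (β1, ENSG00000142507, chr17:4699439-4701797, plus strand, GRCh37) had 49.9 and 68.4 CPM against 68.1 and 74.6 CPM, so that the groups overlapped. Its log2 fold change was 0.28 (SE 0.17, adjusted p = 0.291, edgeR) and ranged from 0.06 without unstimulated library 1 to 0.52 without unstimulated library 2. With the GC and length trend removed, the log2 fold changes of PSMB5, PSMB6 and PSMB7 were 0.19, 0.07 and 0.08.

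Since an inducible subunit takes the place of its counterpart, each pair was also compared within a library as a ratio of counts per kilobase of exon, which does not depend on the scaling between libraries. The level of a ratio depends on the lengths used, but the difference between the groups on the log2 scale does not. The ratio of PSMB9 to PSMB6 differed most between the groups. On the log2 scale it was -6.88 and -7.33 in the unstimulated libraries and -3.59 and -4.24 in the IFNγ libraries, a difference of 3.19 between the means. The ratio of PSMB8 to PSMB5 was -5.90 and -6.17 against -5.12 and -5.45, a difference of 0.75. For PSMB10 to PSMB7 it was -2.58 and -2.65 against -1.99 and -2.39, a difference of 0.43. In all 3 pairs both IFNγ libraries were above both unstimulated ones. The exact two-sided permutation p was 0.333 for each, the smallest that 2 libraries against 2 allow, so that this design cannot reach 0.05. Leaving out each library in turn gave differences of 2.87 to 3.52, 0.58 to 0.92 and 0.23 to 0.62. For PSMB10 to PSMB7, the difference was 0.23 without IFNγ library 1 and 0.62 without IFNγ library 2.

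In every library the constitutive transcript of each pair was the more abundant one. PSMB9 made up 0.84% and 0.618% of its pair per kilobase without IFNγ, and 7.66% and 5.04% with it. PSMB8 made up 1.64% and 1.37%, and then 2.8% and 2.23%. PSMB10 had the largest share before stimulation, 14.3% and 13.7%, and reached 20.1% and 16%. Over the 6 catalytic genes, the inducible share was 7.57% and 6.98% in the unstimulated libraries and 11.7% and 9.04% in the IFNγ libraries, with means of 7.28% ± 0.412 and 10.4% ± 1.85. The 2 groups did not overlap, and the difference of 3.08 percentage points became 1.77 without IFNγ library 1 and 4.39 without IFNγ library 2. PSMB8 and PSMB9 are annotated with long alternative exons, which lowers their values per kilobase. With the length of the canonical transcript, a choice made after the data were seen, the means were 7.71% and 12%. The shares of single pairs moved more. By that length PSMB9 made up 1.56% and 1.15% of its pair without IFNγ, and 13.4% and 9.03% with it. PSMB8 made up 3.37% and 2.81%, and then 5.67% and 4.54%. The PSMB10 share was lower by that length, at 13.3% and 12.7%, and then 18.7% and 14.9%.

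**Figure D3:**
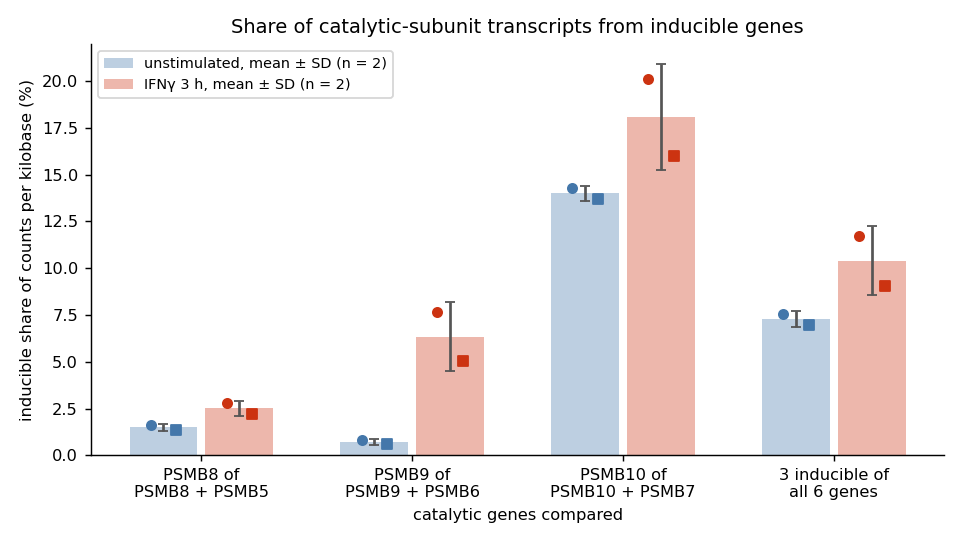
Share of the inducible subunit in each pair, and of the 3 inducible genes among the 6 catalytic genes, in percent of counts per kilobase of exon, with a point for each library. The IFNγ points lie above the unstimulated points in each pair, and none exceeds 20.1%.

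Levels per kilobase (RPKM, CPM per kilobase of exon) gave an order of the members that depends on the length used, here the union of annotated exons. In unstimulated cells it ran from PSMB7 (86.2 ± 7.27 RPKM), PSMB5 (69.8 ± 3.97), PSME1 (62 ± 3.6) and PSMB6 (40.9 ± 9.05) through ERAP1 (20.8 ± 0.579), PSMB10 (14 ± 0.727), PSME2 (12.6 ± 0.505) and ERAP2 (8.25 ± 0.441) to PSMB8 (1.06 ± 0.0797) and PSMB9 (0.293 ± 0.00148). No neighbours in that order overlapped between libraries. In the IFNγ libraries the 4 most abundant kept their order, from PSMB7 (99.2 ± 8.11 RPKM) to PSMB6 (49.3 ± 3.2). PSMB7 overlapped there with PSMB5 (89.9 ± 6.49 RPKM), and PSMB10 (21.8 ± 2.4) overlapped with ERAP1 (20.8 ± 0.714). PSMB9 (3.32 ± 0.824 RPKM) stood above PSMB8 (2.31 ± 0.214) with IFNγ and below it without. By this length both were the lowest of the 10, under ERAP2 (7.5 ± 0.116 RPKM). By canonical transcript length, an alternative chosen after the data were seen, PSMB9 with IFNγ had 12.8 and 8.99 RPKM, on either side of ERAP2 (10.3 and 10.1), and PSMB8 (7.62 and 6.68) was the lowest. That length also placed PSME2 (56.9 ± 2.28 RPKM) above ERAP1 (34.2 ± 0.95) and PSMB10 (23.4 ± 1.21), and PSME1 (114 ± 6.63) above PSMB5 (104 ± 5.89), in unstimulated cells.

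The PA28 subunits did not pass the test. PSME2 (PA28β, ENSG00000100911, chr14:24612571-24616779, minus strand, GRCh37) had 43.8 and 46.4 CPM without IFNγ and 68.4 and 51.4 CPM with it. Only IFNγ library 1 was far above the unstimulated libraries. The log2 fold change was 0.41 (SE 0.164, adjusted p = 0.116, edgeR), with 0.64 in the libraries numbered 1 and 0.15 in those numbered 2. It was 0.18 without IFNγ library 1 (adjusted p = 0.525, edgeR) and 0.58 without IFNγ library 2 (adjusted p = 0.0379, edgeR), so that 1 library decided the side of the threshold. PSME1 (PA28α, ENSG00000092010, chr14:24605372-24608176, plus strand, GRCh37) had 106 and 115 CPM against 127 and 128 CPM. Its groups did not overlap, and the log2 fold change was 0.21 (SE 0.113, adjusted p = 0.224, edgeR). With the GC and length trend removed it was 0.02 for PSME1 and 0.22 for PSME2. Both genes carry the ISRE core shown above within 28 bases of the start, as PSMB8, PSMB10 and ERAP1 do. ERAP2 carries it 30 bases before the start, and the PSMB9 window held no match.

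ERAP1 and ERAP2, which lie side by side on chromosome 5, also did not pass the test. ERAP1 (ENSG00000164307, chr5:96096514-96143803, minus strand, GRCh37) had 162 and 169 CPM in the unstimulated libraries and 169 and 161 CPM in the IFNγ libraries, which overlap. The log2 fold change was -0.00068 (SE 0.109, adjusted p = 0.997, edgeR), and its sign turned with the setting. With the GC and length trend removed it reached 0.32 (adjusted p = 0.0636, or 0.00178 with the replicate block as well, edgeR). The fit with both does not use a gene's own spread between libraries. ERAP2 (ENSG00000164308, chr5:96211690-96255407, plus strand, GRCh37) had 55.2 and 59.5 CPM against 52.7 and 51.6 CPM. Both IFNγ libraries were lower, by less than the spread that the test allows (log2 fold change -0.14, SE 0.124, adjusted p = 0.476, edgeR), and the value turned to 0.15 with the trend removed. At 39.7% and 40.4%, these genes have the lowest GC content of the members.

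The rest of the proteasome and peptide pathway was described by 62 genes, of which 60 had a row and 59 were tested. PSMB3 and PSMA8 were not analysed here, and PSMB11, the thymus-specific β5 subunit, had 0 counts in every library. Of the 59, 9 passed the test higher and 4 lower, and 46 did not pass, beside 9.02% of all genes higher and 11.0% lower. Their median log2 fold change was 0.13, and that of all genes was -0.01. TAP1 and PSMG3 were called higher and PSMC6 was called lower, beside 2.88% of all genes called higher and 4.40% lower. None of the 7 α-ring subunits of the 20S core passed, with a median log2 fold change of -0.18. In the β ring, PSMB2 passed (0.55, adjusted p = 0.0281) and the 2 others did not. Of 9 assembly factors, PSMG3, a chaperone of the α ring, rose from 17.9 and 15.6 CPM to 34.9 and 38.6 CPM (log2 fold change 1.13, adjusted p = 0.00417), and PSMD5, a chaperone of the 19S base, rose by less (0.52, adjusted p = 0.0255). These p-values and those of the next paragraph are from edgeR.

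The 19S cap recognises and unfolds substrates. Among its 6 ATPases, PSMC6 fell from 50.4 and 58 CPM to 30.6 and 18.7 CPM (log2 fold change -1.12, adjusted p = 0.0149), and 5 did not pass. PSMC6 fell in both IFNγ libraries, more so in library 2, and at -0.84 without that library it passed the test but not the fold of a call. Among 13 other 19S subunits, 2 passed, both higher. ADRM1, a ubiquitin receptor, rose from 88.5 and 106 CPM to 174 and 203 CPM (log2 fold change 0.96, adjusted p = 0.00475), and PSMD3 had 0.57 (adjusted p = 0.0154). PSME3, which forms the nuclear activator PA28γ, passed at 0.51 (adjusted p = 0.0275), unlike PSME1 and PSME2, whose difference from it was not tested. Of 7 cytosolic and endosomal peptidases, 2 passed, both lower. TPP2, a large cytosolic peptidase, fell from 58.6 and 63.6 CPM to 35.7 and 29.1 CPM (log2 fold change -0.91, adjusted p = 0.00713), and LNPEP, the endosomal relative of ERAP1 and ERAP2, had -0.62 (adjusted p = 0.0186). Among regulators of proteasome genes, NFE2L2, a stress-response factor, rose by 0.81 on the log2 scale (adjusted p = 0.00634) and DDI2, the protease that activates NFE2L1, had -0.77 (adjusted p = 0.019).

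TAP1 and TAP2, the peptide transporter genes beside PSMB8 and PSMB9, both passed the test higher. TAP1 rose from 2.43 and 3.36 CPM to 131 and 104 CPM (log2 fold change 5.36, adjusted p = 5.87e-05), a larger value than that of any member, and TAP2 went from 10.2 and 9.53 CPM to 23.5 and 14.3 CPM (0.95, adjusted p = 0.0404). TAP1 shares 14.2% of its exon length with PSMB8-AS1 and TAP2 19.5% with ENSG00000250264, as NFE2L2 shares 23.4% with HNRNPA3 and DDI2 18% with RSC1A1. Whether these overlaps raised or lowered the counts was not tested. Of these 13 genes past the test, 6 also passed with each library left out in turn. Those lost in a fit had the same direction there. Without unstimulated library 1, 6 were lost (PSMB2 at adjusted p = 0.136, PSME3 at 0.132, PSMD5 at 0.121, LNPEP at 0.0571, TAP2 at 0.0881 and DDI2 at 0.0546), with log2 fold changes of 0.44, 0.44, 0.46, -0.62, 1.00 and -0.71. Without unstimulated library 2, 5 were lost (PSMD3 at 0.0608, PSME3 at 0.0522, PSMD5 at 0.0554, LNPEP at 0.0568 and TAP2 at 0.101), with log2 fold changes of 0.54, 0.58, 0.58, -0.62 and 0.90. Without IFNγ library 1, TAP2 was lost (0.194, at a log2 fold change of 0.52), and without IFNγ library 2 the 5 lost were PSMB2 (0.0864), PSMD3 (0.0613), PSME3 (0.107), PSMD5 (0.0999) and LNPEP (0.0594), with log2 fold changes of 0.45, 0.46, 0.40, 0.44 and -0.55. With the GC and length trend removed, 10 of the 13 passed, and LNPEP (-0.03), PSMD3 (0.34) and PSME3 (0.37) did not. PSMC6 (-0.82) and PSMG3 (0.84) then passed the test but were under the fold of a call.

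**Figure D4:**
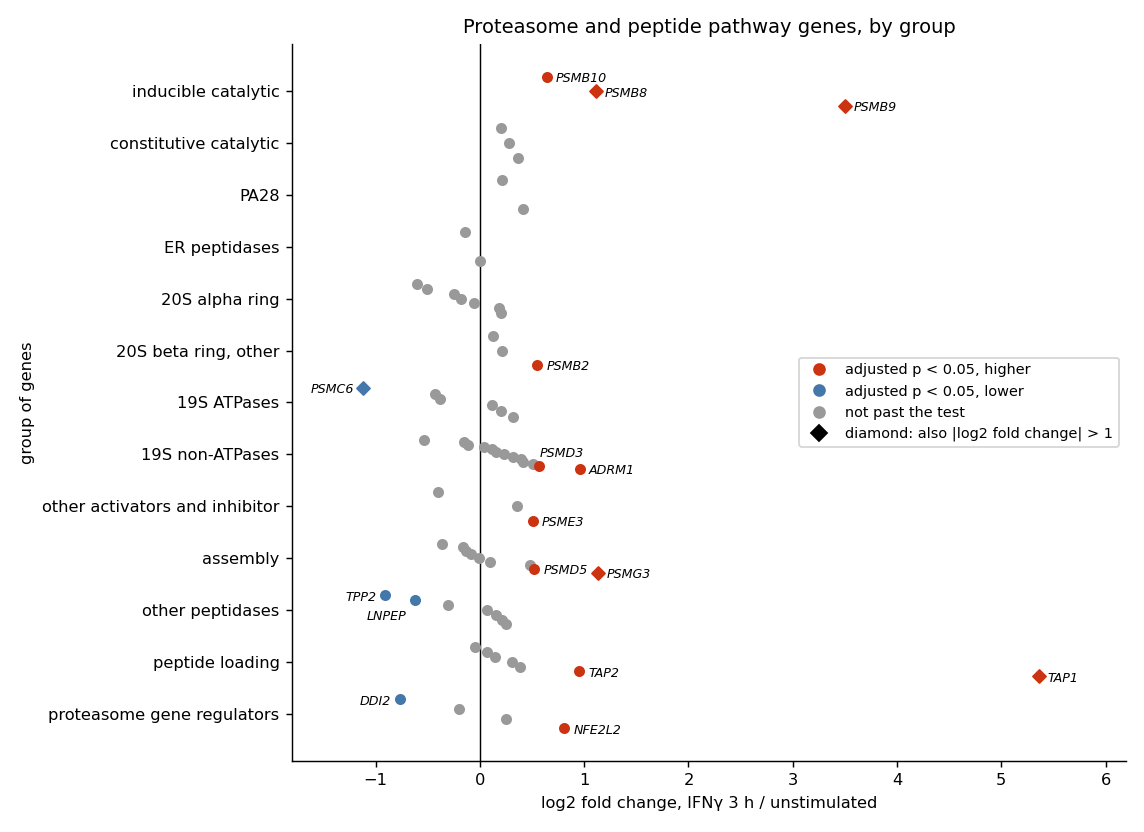
Log2 fold change, IFNγ over unstimulated, of each tested gene of the proteasome and peptide pathway, by role, with genes past the test marked. TAP1 at 5.36 lies farthest from 0, most genes lie between -1 and 1, and the median of the 59 genes outside the 10 members is 0.13.

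The genes whose levels over the 4 libraries were most like those of the inducible subunits were found by the Euclidean distance of centred log2 values of CPM plus 0.5. For PSMB9 they were LRRC66 (distance 0.24), APOL6 (0.327) and UBD (0.382). For PSMB8 they were PMM2 (0.0262), SLC25A44 (0.0636) and SH3RF1 (0.0641), and for PSMB10 RASSF4 (0.0221), FTLP2 (0.0346) and KCTD14 (0.0351). FTLP2 and KCTD14 did not pass the test (adjusted p = 0.15 and 0.156, edgeR). UBD, which encodes the ubiquitin-like modifier FAT10 and targets proteins to the proteasome, had 0 counts in both unstimulated libraries and 29 and 17 counts with IFNγ. Its distance from PSMB9 therefore depends on the 0.5 added. PSMB9 itself had 0.974 and 0.981 CPM without IFNγ, so that its distances from LRRC66 and APOL6 depend on the 0.5 too. The 0.5 also enters the distances of PSMB8, which had 3.5 to 8.56 CPM. It enters those of FTLP2 and KCTD14 as well, which had at most 54 and 36 counts in a library.

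**Figure D5:**
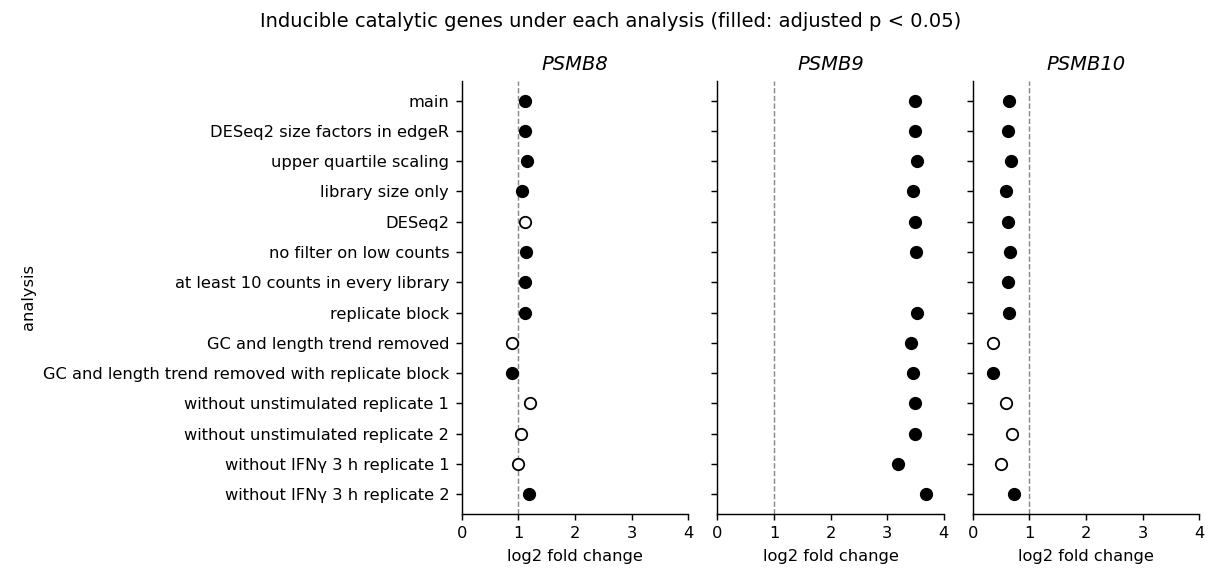
Log2 fold change of PSMB8, PSMB9 and PSMB10, IFNγ over unstimulated, under each way of fitting the data and with each library left out, with filled points past an adjusted p of 0.05. PSMB9 is past the threshold in each of its 12 alternatives, PSMB8 in 8 of 13 and PSMB10 in 9 of 13.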

How the data were processed

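RNA was extracted with the mirVana kit and sequenced from TruSeq RNA libraries, per the labels. For each of 4 libraries the authors deposited unnormalised counts per Ensembl gene, and the submitters' processing notes name HISAT 0.5.1 and HTSeq 0.6.1p1. The genome build, annotation and strand setting of the counting are not given in the sources used here. Symbols were paired with 96.5% of identifiers, and coordinates, exon lengths and GC content came from GENCODE 44 on GRCh37.

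Counts were tested with edgeR 4.0.16 (filterByExpr, TMM, quasi-likelihood test) in R 4.3.3, with Benjamini-Hochberg adjustment over the 14820 genes tested. CPM and RPKM values were computed with TMM-scaled totals. The SE was derived from the F statistic, and values within a numbered pair used CPM with a prior count of 2. Pair ratios were tested by exact permutation of the library labels. Alternatives were DESeq2 size factors, upper quartile or library size scaling, DESeq2 1.42.0, other filters, the replicate number as a block, removal of a loess trend on GC and length (span 0.5), and each library left out. Scripts were tested on simulated data.

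The members, pathway lists and markers were chosen with earlier results of these data known. The text names all members, the pathway genes past the test, TAP1, TAP2, IRF1 and the 3 genes nearest to each inducible subunit. Genes that overlap these, and genes named for counts at or near 0, were named after their values were seen. A leukocyte marker of the fixed list is not reported here.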

Additional observations from a re-analysis of the deposited data

How the results depend on the processing

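Of 129 alternative values for the log2 fold changes of the 10 members, 108 kept their direction and side of the threshold, 9 no longer passed it, 4 newly passed it in the same direction and 8 turned in sign. The 8 were all from ERAP1 and ERAP2, and 1 of them also passed the threshold. ERAP1 had 0.04 with upper quartile scaling, 0.02 with no filter, 0.32 with the GC and length trend removed, also with the block (where it passed, adjusted p = 0.00178, edgeR), and -0.05 to 0.03 with each library left out (0.03 without unstimulated library 2 and 0.01 without IFNγ library 2). ERAP2 had 0.15 with the trend removed, with and without the block. The fit with trend removed and block did not use a gene's own spread between libraries, nor did the fit with no filter. PSMB9 passed in 12 of 12 alternatives and was not tested with at least 10 counts required in every library. The members called (2) were 1 with DESeq2, with at least 10 counts, and with the GC and length trend removed with or without the block, and 1 to 2 with a library left out. The members past the test (3) were 1 with the trend removed, 4 with the trend removed and the block (PSMB8, PSMB9, PSMB10 and ERAP1), and 1 to 4 with a library left out. The pathway genes called (3) were 3 to 6, and those past the test (13) 8 to 18, with a library left out. The mean inducible share was 7.71% without IFNγ by canonical transcript length, an alternative chosen after the data were seen. Without division by length it was 7.91% without IFNγ and 12.4% with it, a difference of 4.46 percentage points. The causes were not tested, apart from PSMB9 falling under the stricter filter.

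The replicate numbers are shared between the groups, and the labels do not say what they mark. The deviations of same-numbered libraries from their group means had a correlation of 0.415. With the replicate block, 5 members passed the test, PSMB5 (adjusted p = 0.00984) and PSME2 (adjusted p = 0.0451, edgeR) being added, and 28 pathway genes passed, or 27 with the trend also removed. Over all genes tested, 17.5% then passed higher and 19.5% lower, beside 9.02% and 11.0% without the block. The 2 libraries per group, and for PSMB9 counts of 10 and 7 before stimulation, limit the precision of all these values.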
